A study of Drosophila melanogaster with 2 samples.

Results

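Peaks at internal alternative gene starts are binding sites of CG1792, a C2H2 zinc finger protein with a zinc-finger associated domain, that lie beside a transcript start inside a gene and not beside the start at its outer edge. They were chosen by position alone, with no use of peak strength. The summit of a peak, its highest point, had to lie within 500 bp of protein-coding transcript starts that were all on 1 strand, and each of those starts had to lie more than 500 bp downstream of the outermost annotated start of its own gene. The rule kept 249 of the 2892 peaks of the thresholded list, or 8.61% (Wilson 95% interval 7.64 to 9.69). The nearest starts of these peaks belonged to 221 genes, and 223 genes had a start within reach. The other peaks comprised 709 at outermost starts of 1 strand, 557 at starts on both strands, 19 at mixed outermost and internal starts, and 1358 with no protein-coding start within reach.

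The libraries were 2 biological replicates, numbered 2 and 3, of embryos aged 0 to 24 h of Drosophila melanogaster strain CG1792-GFP, with sexes pooled. The flies stably carried an insertion that expresses CG1792 with green fluorescent protein at its C terminus, and chromatin sonicated to 200 to 800 bp was precipitated through the tag. The label of the antibody field names CG1792 itself, and nothing in the labels describes what the flies' own CG1792 gene did. Both libraries belonged to 1 group and control libraries were not analysed here, so peaks were compared with other peaks and not conditions with each other, and the embryo mixture gives no cell type. The p-values below describe peaks or genes of these 2 libraries, peaks are not independent replicates, and binding does not measure transcription.

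A gene with several starts can make its transcripts from separate promoters, each with its own control elements. Transcripts from an inner start leave out the outer first exons, so they can carry another 5′ leader, and where the start codon also differs they can encode a protein with another N terminus. In the fly, many signalling, cytoskeletal and transcription factor genes use such promoters at different stages or in different tissues. The DNA replication-related element (DRE) is a typical core promoter element of broadly expressed fly genes, and the GAGA element, bound by the GAGA factor, is common at promoters of developmentally regulated genes.

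The bases under strong intronic summits are shown because they give the base composition described further on. Each window holds the 101 bp centred on the summit in dm6, on the strand of the gene and read 5′ to 3′, and only windows clear of annotated untranslated regions are shown. Capitals mark a match, on either strand, to any of 8 words of 7 bases that were more frequent at the summits than in the flanks of all other peaks. In the members, the word ATCGATA was at 10 summits, AACACTG at 8, CTATCGA at 7, CAGTGTA and the word GATATTA at 6 each, ACTATCG at 5, and CGATAGC and the word ATCTCTA at 4 each. Any of the words was at 15.3% of member summits and at 17.6% of the summits of all other peaks. The words were chosen in those other peaks, which raises the second share, and they are not a trait particular to the members. The windows lie at chr3R:28326545-28326645, minus strand, for larp; at chr2L:4997616-4997716, minus strand, for Rtnl1; at chr2L:10010166-10010266, plus strand, for Trp1; at chr3R:18584162-18584262, plus strand, for fray; and at chr3R:31384228-31384328, plus strand, for CG1607.
larp: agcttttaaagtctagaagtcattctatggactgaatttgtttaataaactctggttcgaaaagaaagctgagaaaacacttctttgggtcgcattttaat
Rtnl1: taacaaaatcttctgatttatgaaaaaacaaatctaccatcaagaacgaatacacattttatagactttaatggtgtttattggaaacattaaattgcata
Trp1: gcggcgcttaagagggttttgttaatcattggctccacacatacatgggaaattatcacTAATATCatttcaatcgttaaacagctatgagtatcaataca
fray: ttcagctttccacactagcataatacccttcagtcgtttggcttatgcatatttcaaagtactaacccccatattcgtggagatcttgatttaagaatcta
CG1607: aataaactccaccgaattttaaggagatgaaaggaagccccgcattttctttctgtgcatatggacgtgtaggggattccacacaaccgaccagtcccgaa
Of these 5 windows, the one at Trp1 held a word, GATATTA, read on the other strand. Among these 5 the window of Rtnl1 was the poorest in G and C, at 24.8%, and that of CG1607 the richest, at 46.5%.

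Further intronic windows that did hold a word are shown to place the matches. They lie at chr3R:25646965-25647065 for jigr1, at chr3L:8766090-8766190 for Fhos and at chrX:3255692-3255792 for dnc, all on the plus strand.
jigr1: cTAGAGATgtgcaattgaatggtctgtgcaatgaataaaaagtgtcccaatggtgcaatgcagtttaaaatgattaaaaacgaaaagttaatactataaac
Fhos: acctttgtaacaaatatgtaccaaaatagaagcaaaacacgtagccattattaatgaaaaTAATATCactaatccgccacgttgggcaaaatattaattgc
dnc: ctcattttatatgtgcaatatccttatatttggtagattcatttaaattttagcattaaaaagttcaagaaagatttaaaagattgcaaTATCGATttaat
The match at dnc, ATCGATA, lies within the DRE sequence, while those at jigr1 (ATCTCTA) and Fhos (GATATTA) are not part of it. The match lay toward an end of the window at jigr1 and dnc and near its centre at Fhos.

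The strongest peak at an internal start was that of px, a gene named for its wing vein phenotype. It lay on 2R at 22514113 to 22514501, in an intron, with a signal of 1139 in the pooled list, 527 in replicate 2 and 614 in replicate 3. Signal is the caller's own measure of a region's strength, on an unstated scale, so values are compared within a list. The px summit was 210 bp upstream of a start that lies 47966 bp inside the gene and ranked 5 among all 2892 peaks. The second was at PNPase, which encodes the mitochondrial exoribonuclease polynucleotide phosphorylase, on 3R at 31404490 to 31404845, with signals of 856 pooled, 374 in replicate 2 and 483 in replicate 3. Its summit lay 77 bp downstream of a start only 712 bp inside the gene, within a 5′ UTR. CG1888 followed on 2R at 9547025 to 9547357, with signals of 817 pooled, 400 in replicate 2 and 411 in replicate 3, and a summit 243 bp upstream of its start.

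The following genes encode proteins of varied function. At gish, a casein kinase I gamma gene, the peak on 3R had a signal of 644 pooled, 268 in replicate 2 and 372 in replicate 3, and its summit lay 146 bp upstream of a start 8437 bp inside the gene. At larp, which encodes a La-related RNA-binding protein, the stronger of its peaks, on 3R at 28326447 to 28326751, had a signal of 617 pooled, 237 in replicate 2 and 377 in replicate 3. Its summit lay 331 bp upstream of a start 10176 bp inside. A second peak of larp, at a start 899 bp inside, had a pooled signal of 124. MFS10, a gene of the major facilitator family of transporters on X, had a peak at 13131183 to 13131525 with signals of 569 pooled, 300 in replicate 2 and 272 in replicate 3, beside a weaker one of 77.5 at a start further out. The strongest peaks of px, PNPase, CG1888, gish, larp and MFS10 all ranked 60 or better in each replicate.

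The next members by strength followed. Trp1, whose product takes part in protein import into the endoplasmic reticulum, had a signal of 424 pooled, 187 in replicate 2 and 234 in replicate 3, with its start 973 bp inside the gene. The peak of fray, a Ste20-like kinase gene, had 358 pooled, 195 in replicate 2 and 162 in replicate 3, and a start of CG7694 also lay within 500 bp of the summit. CG1607 had 356 pooled, 172 in replicate 2 and 181 in replicate 3, and Drat had 342 pooled, 159 in replicate 2 and 192 in replicate 3. CG8036, a transketolase gene, had 331 pooled, 137 in replicate 2 and 190 in replicate 3, and Fkbp14, which encodes a peptidyl-prolyl isomerase, had 302 pooled, 129 in replicate 2 and 173 in replicate 3. The mitochondrial citrate carrier gene sea had 297 pooled, 138 in replicate 2 and 162 in replicate 3. The gene of the proline catabolic enzyme P5CDh1 had 287 pooled, 118 in replicate 2 and 167 in replicate 3. At spi, which encodes the epidermal growth factor receptor ligand Spitz, the values were 283 pooled, 142 in replicate 2 and 141 in replicate 3, 234 bp upstream of a start 1728 bp inside. CG18622, at 280 pooled, and wun, a lipid phosphate phosphatase gene that guides germ cells, at 275 pooled, differed from most by summits downstream of the start, by 222 and 405 bp.

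Over all members the pooled signal had a median of 114, quartiles of 79.6 and 183, and a range of 67.4 to 1139. At outermost starts the median was 99.3, with quartiles of 78.1 and 138, and over all peaks it was 101. The strongest 723 peaks of the list included 90 of the 249 members, or 36.1% (30.4 to 42.3), against 22.8% (19.9 to 26.1) of peaks at outermost starts, 25.9% of those at starts on both strands and 23.6% of those away from starts. These shares are descriptions with counting intervals and were not tested. The interval of the members did not overlap that of peaks at outermost starts.

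**Figure D1:**
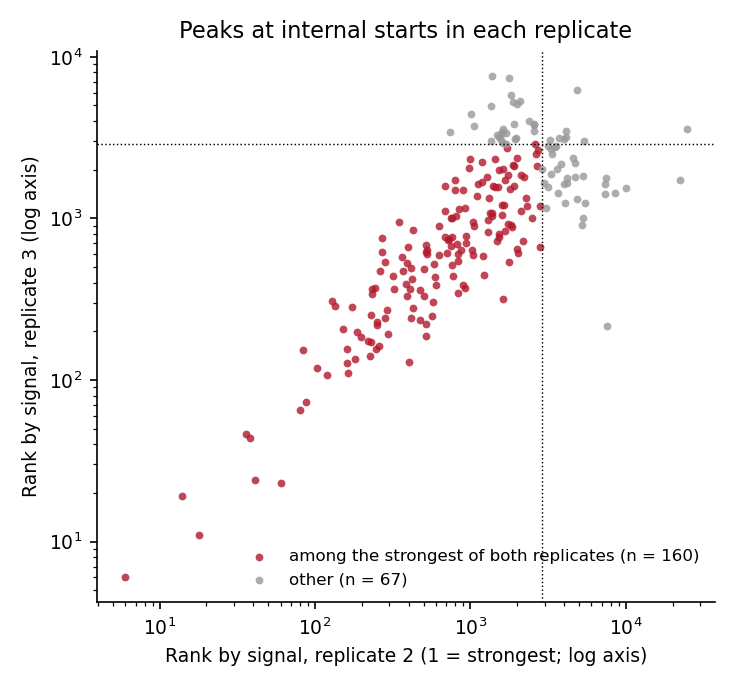
Rank by signal of each peak at an internal start in replicate 2 (horizontal, log axis) and replicate 3 (vertical, log axis), where 1 is the strongest region, for the 227 members with a summit within 100 bp in both lists; the dotted lines mark rank 2892 and red points lie inside both. The 160 red points run along the diagonal and the 67 grey points lie beyond 1 of the lines or, in a few cases, both.

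The first comparison asked whether the replicates supported peaks at internal starts as well as peaks at outermost starts. Among the 2892 strongest regions of both replicates were 160 of 249 members, or 64.3% (58.1 to 70.0), against 469 of 709 peaks at outermost starts, or 66.1% (62.6 to 69.5). The odds ratio was 0.920 (95% interval 0.673 to 1.26), and the shares did not differ by a two-sided Fisher's exact test (p = 0.588, adjusted exact p = 0.784 over 4 tests). Over all thresholded peaks the share was 67.3%. A further 36 members were among the strongest of replicate 2 alone, 44 of replicate 3 alone and 9 of neither. The list had been thresholded on the repeatability of its ranks in these same libraries, so part of this support is built in. Across the 227 members found in both complete lists, ranks had a Spearman correlation of 0.768. Members with unequal support included Drat, whose second peak ranked 7591 in replicate 2 and 217 in replicate 3, and lola, a BTB zinc finger transcription factor gene, whose peak of signal 214 had no summit within 100 bp in replicate 2.

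The second comparison asked whether regions at internal starts reached the thresholded list as often as regions at outermost starts. Of 1763 pooled regions at internal starts, 249 were thresholded, or 14.1% (12.6 to 15.8), against 709 of 4996 at outermost starts, or 14.2% (13.3 to 15.2). The odds ratio was 0.994 (0.847 to 1.16), with an adjusted exact p of 0.968 by the two-sided Fisher's exact test. Both shares were above the 9.64% of all 30000 pooled regions. The direction changed with the window and with the replicate used, and the adjusted exact p stayed above the threshold of 0.05 in each alternative.

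The third comparison was the side of the start on which summits lay. The rule did not name a side, but it limited the upstream reach of starts at most 1 kb inside. A summit far upstream of such a start lies within 500 bp of the outermost start and was left out. Members at those starts were upstream in 61.1% (n = 36). Summits were upstream of the nearest start at 201 of 249 members, or 80.7% (75.4 to 85.1), against 553 of 709 peaks at outermost starts, or 78.0% (74.8 to 80.9). The odds ratio was 1.18 (0.814 to 1.74; two-sided Fisher's exact test, p = 0.418, adjusted exact p = 0.784). With only starts over 1000 bp inside counted as internal, 84.0% of members were upstream, against 77.5%. The odds ratio was then 1.52 (two-sided Fisher's exact test, p = 0.0454, adjusted exact p = 0.105). Pooled regions at internal starts below the threshold were upstream in 50.3% (47.8 to 52.8).

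The distance upstream differed more. The median summit lay at −174 bp at internal starts (quartiles −284 and −55), against −88 bp at outermost starts (quartiles −190 and −10) and −59 bp at starts on both strands. More than 100 bp upstream were 163 of 249 members, or 65.5% (59.4 to 71.1), against 326 of 709 peaks at outermost starts, or 46.0% (42.3 to 49.7). Among regions below the threshold the shares were 36.5% (34.1 to 39.0) at internal starts and 29.3% (28.0 to 30.7) at outermost starts. For the peaks the odds ratio was 2.22 (two-sided Fisher's exact test, adjusted exact p = 5.81e-07). This limit of 100 bp was chosen after the distances had been seen, so that p describes the distances it was chosen on and gives no separate support. The rule also shapes these distances. A summit upstream of an outermost start was not in that class where a start on the other strand lay within 500 bp. This can shorten the upstream distances at outermost starts, and its part in the difference was not tested. Conversely, 22.5% of members lay within 100 bp of the start, against 44.7% of peaks at outermost starts. The summits of px, gish, larp, Rtnl1, dnc, fray, spi and Ptpmeg2 all lay more than 100 bp upstream, while those of Eip75B, 10 bp downstream, and Ten-a, 16 bp upstream, lay at the start itself.

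Distance also moved with strength in both classes. With the list divided into 4 equal classes, from strongest to weakest, the median position of members was −211, −190.5, −151 and −85 bp, and that of peaks at outermost starts −138.5, −103, −76 and −46 bp. In each class the members lay further upstream. Members whose start was at most 1 kb inside the gene had a median of −54 bp (n = 36). For starts 1 to 10 kb inside it was −190.5 bp (n = 142) and for starts over 10 kb inside −214 bp (n = 71). The rule leaves out summits far upstream of starts at most 1 kb inside, because these lie within 500 bp of the outermost start. The shorter distance of that first group is therefore in part built in.

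**Figure D2:**
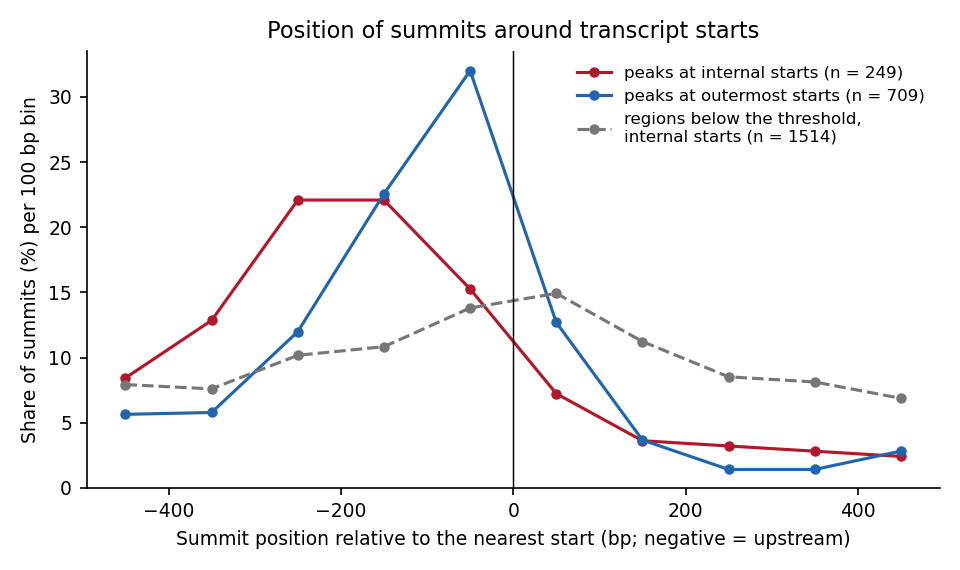
Share of summits (vertical, percent) in bins of 100 bp by position relative to the nearest start (horizontal, bp, upstream negative), for 249 peaks at internal starts (red), 709 peaks at outermost starts (blue) and 1514 pooled regions at internal starts below the threshold (grey, dashed). Peaks at internal starts are most frequent between −300 and −100 bp, with 22.1% in each of those bins, whereas 32.0% of peaks at outermost starts fall in the last 100 bp before the start and the regions below the threshold spread over both sides.

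By annotation, 206 of the 249 summits, or 82.7% (77.5 to 86.9), lay in introns of transcripts that begin further out, 42 (16.9%) in 5′ UTRs and 1 in a coding exon, that of BEAF-32, an insulator protein gene. Of the regions at internal starts below the threshold, 57.1% were intronic, 32.9% in 5′ UTRs and 9.78% in coding exons. Intronic summits lay at a median of −199.5 bp and those in 5′ UTRs at 36 bp. The 5′ UTR of a transcript lies downstream of its start, so annotation and side of the start are not separate results. Members in 5′ UTRs included PNPase, CG1888, MFS10, the strongest peak of dnc, Eip75B, Trl and Nrx-1.

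The starts lay 503 to 160100 bp inside their genes, with a median of 3691 bp, against 3298 bp over the 3646 distinct internal starts of the annotation. The innermost was that of Ten-a, a teneurin gene on X, with a signal of 115 pooled, 49.9 in replicate 2 and 64.7 in replicate 3. In 122 of the 272 starts within reach of a member, or 44.9% (39.1 to 50.8), all transcripts used another start codon than transcripts that begin within 500 bp of the outermost start, against 47.6% (45.9 to 49.3) of the other internal starts. Among the strongest members, px, gish, larp, Rtnl1, dnc, Trp1, Ptpmeg2 and wun were of this kind, while PNPase, CG1888, MFS10, fray, CG8036, sea and spi shared the start codon. Members were spread over the arms, with 55 on 3R, 53 on X, 47 each on 2L and 3L, 46 on 2R and a single member on 4, which is 7.90% to 10.4% of the peaks on each of the 5 large arms.

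Several genes carried more than 1 such peak: 21 genes had at least 2 and 6 had at least 3, and together the 21 held 49 members. Rtnl1, the reticulon gene that encodes a shaping protein of the endoplasmic reticulum, carried 4, with pooled signals of 559, 273, 87.1 and 70.3 at starts 12339, 4792, 10218 and 9350 bp inside. The strongest of these had signals of 283 in replicate 2 and 275 in replicate 3, and its outermost start had a weaker peak of 71.3. The cAMP phosphodiesterase gene dnc, known from learning mutants, carried 3, with 440, 259 and 86.0 at starts 118841, 79628 and 152967 bp inside, and no peak at its outermost start. At its strongest peak the signals were 197 in replicate 2 and 240 in replicate 3.

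Ptpmeg2, a tyrosine phosphatase gene, carried 3, with pooled signals of 321, 265 and 170 at 189, 187 and 212 bp upstream of their starts, and a peak of 80.1 at its outermost start. The peaks of Pgk, which encodes the glycolytic enzyme phosphoglycerate kinase, had signals of 145, 142 and 80.5, and those of 145 and 80.5 overlapped, with summits between the same pair of starts. Those of RapGAP1, a Rap GTPase-activating protein gene, had 124, 119 and 114, and those of 124 and 119 overlapped and shared 1 start. Svil, a supervillin gene, had 1 stronger peak of 214 at a start 116883 bp inside, and 2 of 72.7 and 68.0. Of the weaker 2 of Svil and the weaker 2 of Rtnl1, none was among the strongest regions of both replicates, whereas the weakest of dnc and of RapGAP1 were in both. The RapGAP1 peak of 119 had no summit within 100 bp in replicate 2. The Pgk peak of 80.5 was among the strongest regions of neither replicate, with ranks of 4000 in replicate 2 and 3078 in replicate 3.

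Genes with 2 members were CAP, CG14968, CG31635, CG31886, Drat, MFS10, P5CDh1, PAN3, Rgl, Tm1, brwl, l(2)k01209, larp, mrj and papi. In CG31635, CG31886, Drat, P5CDh1, brwl, l(2)k01209, mrj and papi both summits belonged to the same start. Among all members, 10 of 249, or 4.02%, had a stronger peak within 250 bp, against 98 of 2892, or 3.39%, in the whole list. At CAP and PAN3, a vinculin-binding adaptor gene and a deadenylase subunit gene, the starts differed, and the signals were 193 and 160 at CAP and 225 and 73.6 at PAN3.

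**Figure D3:**
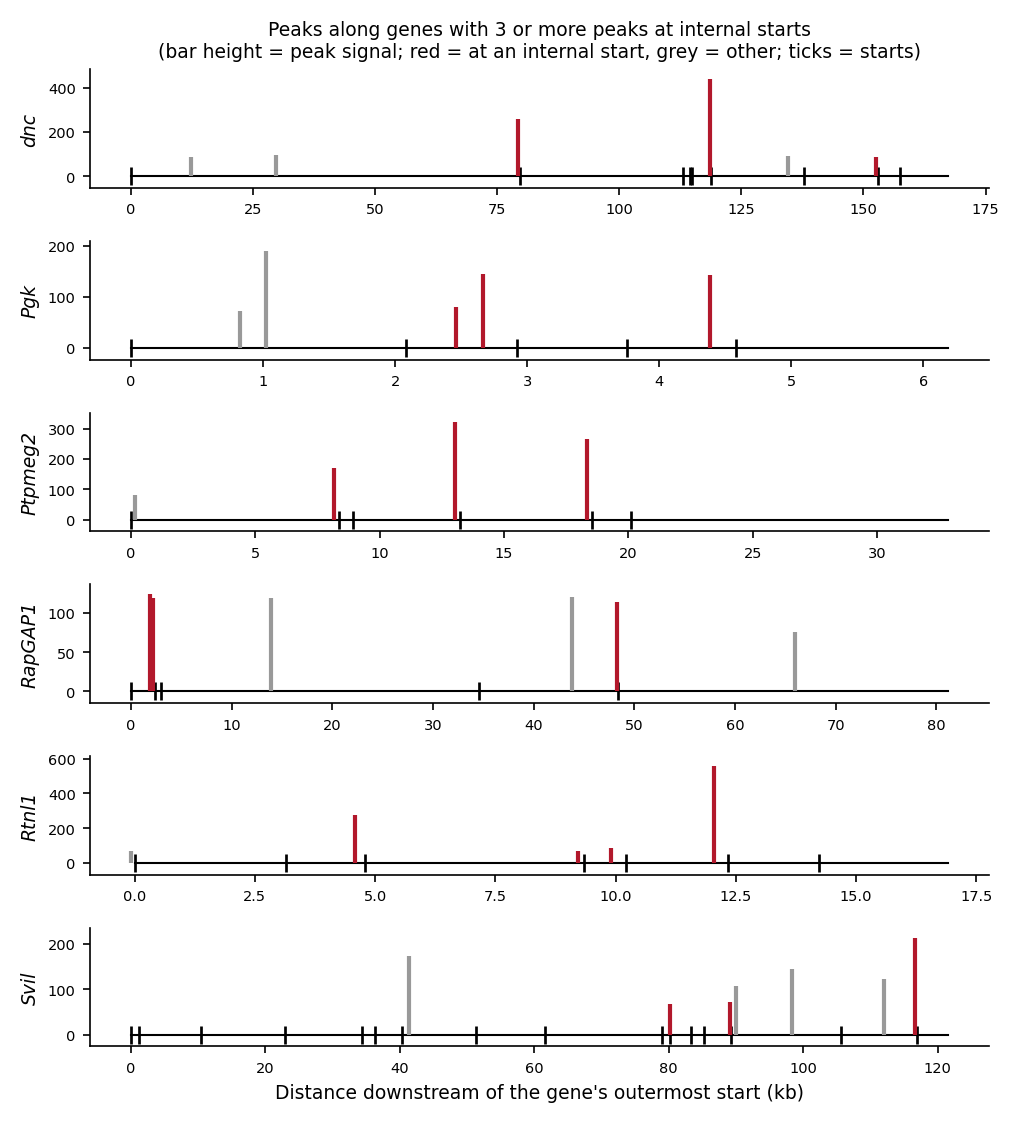
Peaks along the 6 genes with 3 or more peaks at internal starts, by distance from the outermost start (horizontal, kb, transcription to the right); bar height is the pooled signal, red bars are peaks at internal starts, grey bars other peaks of the gene, and black ticks annotated starts. In Ptpmeg2 and dnc each red bar stands a short way left of a start, in Pgk 1 red bar stands 382 bp to the right of its nearest start, and grey bars at the outermost start are present in Rtnl1 (71.3) and Ptpmeg2 (80.1).

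The fourth comparison asked whether genes with such a peak also had one at their outermost start. This was so for 47 of 223 genes, or 21.1% (16.2 to 26.9), against 295 of 1948 other genes with an internal start, or 15.1% (13.6 to 16.8), beside 15.8% over all 2171 genes with an internal start. The odds ratio was 1.50 (1.04 to 2.13; two-sided Fisher's exact test, p = 0.0254), and the difference was not past the threshold after adjustment (adjusted exact p = 0.102). With a window of 1000 bp the odds ratio was 1.79 (adjusted exact p = 0.000553) and with 250 bp 1.75 (adjusted exact p = 0.0460), while in the stronger 1446 peaks the direction turned, with 0.566 (adjusted exact p = 0.465). Genes were also divided into 4 equal length classes, from shortest to longest. Among genes with an internal-start peak, the outermost start was bound in 35.0% (7 of 20), 29.8% (14 of 47), 19.7% (15 of 76) and 13.8% (11 of 80). Among the other genes it was bound in 15.3%, 16.7%, 14.8% and 13.6%. The Wilson intervals overlapped in each class, with 18.1 to 56.7 against 12.5 to 18.6 in the shortest and 18.7 to 44.0 against 13.7 to 20.3 in the next. The classes were not tested. Genes with an internal-start peak had a median length of 15736 bp, against 8562 bp in the others. Of the strongest members, Rtnl1, Drat, Ptpmeg2 and P5CDh1 had a peak at both kinds of start, and px, PNPase, CG1888, gish, larp, MFS10 and dnc had none at the outermost.

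Gene lists gave a rough view of function, with a background of 10.3% of genes with an internal start that had a member peak at one. Only peaks kept by the rule were counted, here and in the lists. A peak at an internal start that also lay within 500 bp of an outermost start or of a start on the other strand was not. A peak was present at 10 of 29 protein kinase and phosphatase genes (34.5%, 19.9 to 52.7), among them gish, sgg, Src64B, Doa and Btk. The same held for 10 of 34 cell junction, adhesion and cytoskeleton genes (29.4%, 16.8 to 46.2), led by the nesprin gene Msp300 at a signal of 256 pooled, 131 in replicate 2 and 126 in replicate 3, with unc-5, dlg1 and shot after it. Among chromatin and insulator genes it was 6 of 19 (31.6%, 15.4 to 54.0), led by Trl, the GAGA factor gene, with 199 pooled, 100 in replicate 2 and 111 in replicate 3. Among small GTPase and exchange factor genes it was 5 of 16 (31.3%, 14.2 to 55.6), led by the cytokinesis gene pbl with 150 pooled, 69.5 in replicate 2 and 79.1 in replicate 3. Of metabolic and transport enzyme genes, 5 of 19 (26.3%, 11.8 to 48.8) had one, with CG8036 the strongest. These 5 shares lie above the background. The lists were written with earlier results of these data known, so where they stand against the background is a description only.

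The other lists were nearer to it. The counts were 4 of 26 signalling pathway genes (15.4%), led by spi, 5 of 35 RNA-binding and splicing regulators (14.3%), led by larp, and 2 of 17 ecdysone response and nuclear receptor genes (11.8%), Eip75B at 227 and ERR at 81.8. Of developmental transcription factors 4 of 37 (10.8%) had one, lola, cnc, tna and fru. Among ion channel, synapse and neuronal genes it was 1 of 23 (4.35%, 0.772 to 21.0), the neurexin gene Nrx-1 at a signal of 204. The lists are small, gene length and number of starts were not matched between them, and no list was tested. A gene with more internal starts has more places where such a peak can lie. Counted per member, the median number of starts of the gene was 3, against 2 over all genes with an internal start. None of 12 marker genes of neurons, muscle, haemocytes and germline had a member peak at an internal start, and 6 of them had no internal start.

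Below the summits the DNA was poor in G and C. In the 101 bp around the summit, GC content averaged 37.5 ± 9.39% (SD, n = 249) in members, against 39.6% ± 9.22 in peaks at outermost starts (n = 709), 37.0% ± 8.68 in all other peaks together (n = 2643) and 43.5% ± 9.97 in regions at internal starts below the threshold (n = 1514). The flanks 300 bp to either side of the members averaged 43.0%. The summit held less GC than the mean of its flanks at 177 of 249 members, or 71.1% (65.2 to 76.4), against 68.9% of all other peaks. Members among the stronger 1446 peaks averaged 35.6%, and the weaker members 40.2%. The part of GC content in the signal was not tested.

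**Figure D4:**
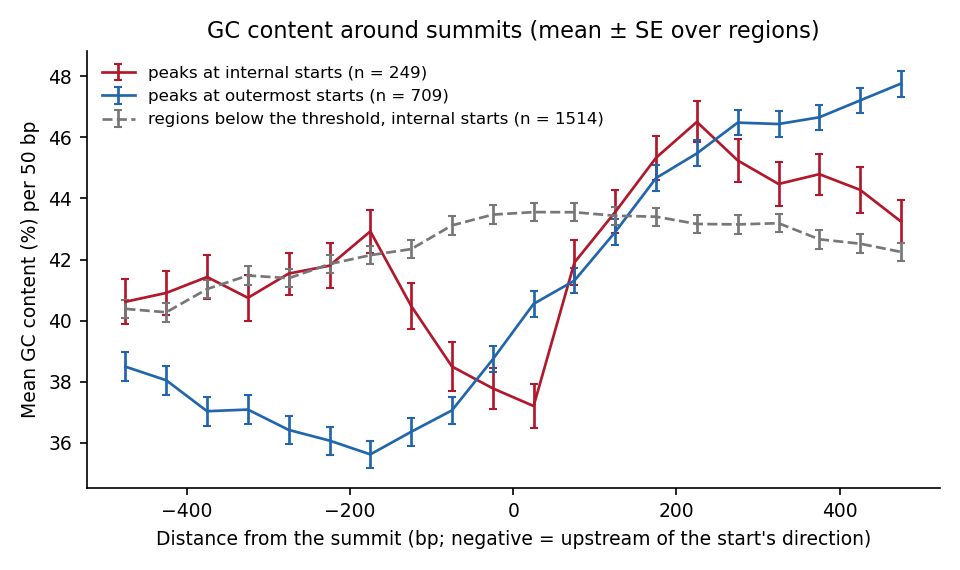
Mean GC content per 50 bp (vertical, percent; the axis does not begin at 0; bars are standard errors over regions) by distance from the summit (horizontal, bp, upstream of the start's direction negative) for peaks at internal starts (red, n = 249), peaks at outermost starts (blue, n = 709) and regions at internal starts below the threshold (grey, dashed, n = 1514). Peaks at internal starts dip to 37.2% at the summit between higher flanks on both sides, while the blue line is low over the whole upstream side and the grey line shows no dip.

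Promoter elements also differed in frequency. The DRE, TATCGATA, was in none of the 249 summit windows of members, where a limit of 3 counts allows a share of up to 1.20% and the Wilson upper bound is 1.52%, against 34 of 709 at outermost starts, or 4.80% (3.45 to 6.63). In the 101 bp window that ends at the nearest start, 1 of 249 members (0.402%, 0.0709 to 2.24) held it, against 58 of 709 (8.18%, 6.38 to 10.4). Among regions below the threshold, those at internal starts held it there in 1.52% (1.01 to 2.27), against 7.70% (6.94 to 8.53) at outermost starts, and internal starts without any pooled region in 0.558% (n = 1791). The shorter core CGATA gave 13.3% of members (9.59 to 18.0) in that window, against 34.8% (31.4 to 38.4) at outermost starts. Regions at internal starts below the threshold held it there in 16.1% (14.3 to 18.0) and internal starts without a region in 13.5%. The low share of the core was thus common to internal starts, with a peak or without.

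The GAGA element, GAGAG, went the other way. In the window before the start it was in 100 of 249 members, or 40.2% (34.3 to 46.4), against 150 of 709 peaks at outermost starts, or 21.2% (18.3 to 24.3). Regions at internal starts below the threshold held it in 30.1% (27.9 to 32.5) and internal starts without a region in 18.1%. GC content of these windows averaged 49.0% in members, against 45.2% at outermost starts and 47.3% in regions at internal starts below the threshold, and its part in the share was not tested. At the summits themselves the shares were 18.5% (14.1 to 23.8) against 12.8% (10.6 to 15.5), and the flanks of the members held 22.1% and 23.3%, so GAGAG was not concentrated at the summits. The E-box CAGCTG was in 2.41% of member summits (1.11 to 5.16), against 7.23% and 7.63% of their flanks and 6.06% of summits at outermost starts. Just upstream of the start it was in 13.3% of members (9.59 to 18.0), against 9.73% (7.76 to 12.1) at outermost starts. Regions at internal starts below the threshold held it there in 8.19% (6.91 to 9.68) and internal starts without a region in 5.08%. The TATA box, searched as TATAAA, was in 12.9% of member summits against 14.5% at outermost starts. In the window before the start, 15 of 249 members, or 6.02% (3.68 to 9.70), held it, against 10.9% (8.78 to 13.4) at outermost starts. Regions at internal starts below the threshold held it there in 9.84% and internal starts without a region in 13.5%. The part of GC content in these shares was not tested. The initiator, searched as TCAGT, was in 22.5% against 16.9%, beside 21.7% and 18.9% of the members' flanks and 22.4% of regions at internal starts below the threshold. Just upstream of the start these letters were in 18.1% of members against 19.9% at outermost starts. That window ends at the start, so it cannot hold whole an initiator that crosses the start, and the shares do not describe one in place. The Ohler 1 element, searched as GGTCACAC, was in 1.20% of member summits against 2.12%. In the window before the start it was in 0.803% of members (0.221 to 2.88), against 3.67% (2.51 to 5.32) at outermost starts. Among regions below the threshold the shares there were 0.793% at internal starts and 3.92% at outermost starts.

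The 8 words chosen in the other peaks, of which ATCGATA lies within the DRE and ACTATCG, and likewise CTATCGA and the word CGATAGC, share bases with it, were read in the members afterwards. Any of them was in 38 of 249 summit windows, or 15.3% (11.3 to 20.3), against 4.82% and 3.61% of the members' flanks. Peaks at outermost starts were among those the words were chosen in, so their share is not set beside that of the members. Regions at internal starts below the threshold held one in 7.79% (6.55 to 9.25). ATCGATA, as printed for dnc, was in 10 member summits, or 4.02%, against 0.402% of each flank. A match of letters is a description of the window and not a binding site, and most member summits, those of larp and Rtnl1 among them, held none of the words.

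**Figure D5:**
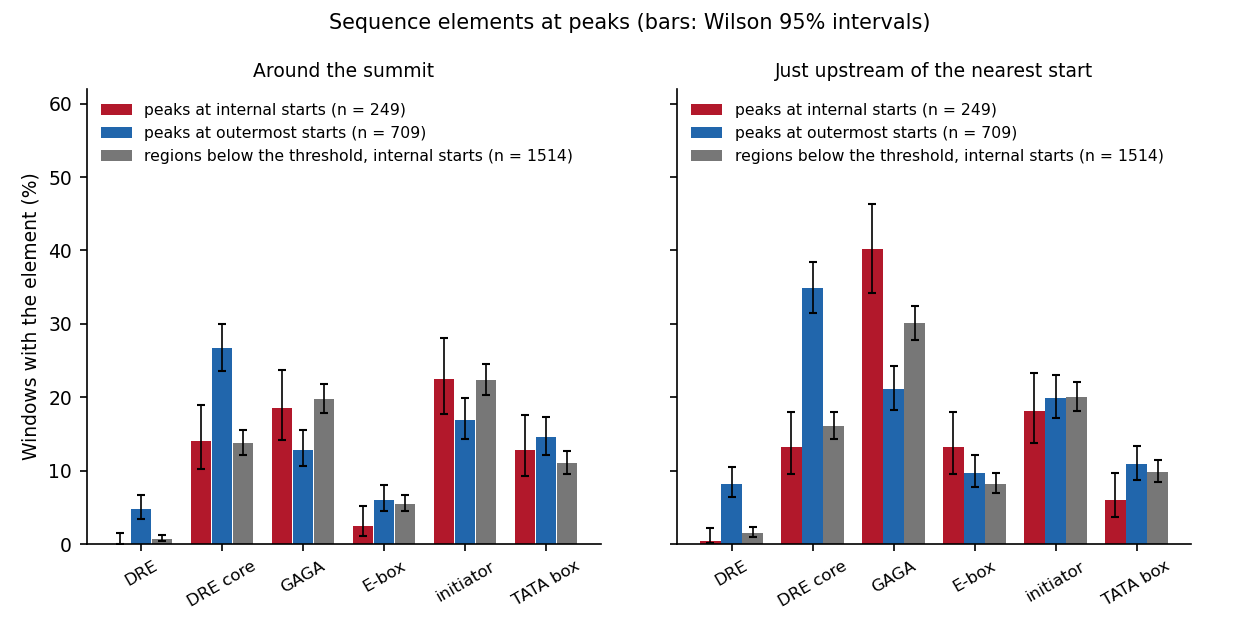
Share of 101 bp windows (vertical, percent, bars with Wilson 95% intervals) that hold each sequence element, around the summit (left) and just upstream of the nearest start (right), for 249 peaks at internal starts (red), 709 peaks at outermost starts (blue) and 1514 regions at internal starts below the threshold (grey). Upstream of the start, red is above blue for GAGA (40.2% against 21.2%) and below blue for the DRE (0.402% against 8.18%) and its core (13.3% against 34.8%). The windows on the right end at the start, so they cannot hold whole an initiator that crosses it.

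At the edges of the rule, 12 members had summits more than 450 bp from the nearest start, with a median signal of 103, and 17 peaks with a median of 143 would have joined with a window of 550 bp. In 2 members the start lay less than 600 bp inside the gene (median signal 86.1), and 3 peaks would have joined had the distance been 400 bp (median 137).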

How the data were processed

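Peak lists in dm6 were analysed as the authors deposited them: 1 per replicate and 1 of the pooled replicates, each with 30000 regions, and the list cut at the irreproducible discovery rate, which scores the repeatability of ranks. Per the listing deposited with the libraries, regions were called against a control alignment, which was not analysed here. The aligner, peak caller and settings were not given in the sources used here. Each region's deposited signal value has no stated scale. The −log10 q-value deposited beside it was not used in any result, and the deposited summit offset gave the summit position. The lists hold no read counts, so depth is unknown and intervals cover counting error only. The dm3 copies were not used.

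Transcript starts came from Ensembl release 115 (BDGP release 6; 13945 protein-coding genes) and bases from the RefSeq dm6 genome. Positions are 1-based. A replicate supported a peak when a summit lay within 100 bp among its 2892 strongest regions. Fisher's exact test, two-sided, was applied to shares, with p-values adjusted over 4 tests by Benjamini-Hochberg and a threshold of 0.05, after the scripts had been tested on simulated data, and Wilson 95% intervals are given. The 8 words of 7 bases had the highest ratio of summit to flank among those in at least 2% of all other peaks. Python 3.11.15, numpy 2.4.6, pandas 2.3.3, scipy 1.17.1 and matplotlib 3.10.9 were used. Named genes were the 20 strongest members supported by both replicates, the strongest member of each of 10 gene lists and genes with at least 2 members; others are examples chosen after their values were seen. The members, lists and tests were chosen with earlier results of these data known. Alternatives were windows of 250 and 1000 bp, starts over 1000 bp inside, the stronger 1446 peaks, summit matches within 50 and 200 bp, each replicate alone and, chosen after seeing the data, a limit of 100 bp upstream and removal of peaks with a stronger peak within 250 bp. The printed windows were the strongest intronic ones outside 2R, without 1 that is not reported here, so px and other members on 2R have none. Windows that end at the start were likewise read after the data had been seen.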

Additional observations from a re-analysis of the deposited data

How the results depend on the processing

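The 249 members became 144 among the stronger 1446 peaks, where fewer peaks enter, and ranged from 243 to 251 with 1 replicate left out. Odds ratios for the upstream side ranged from 1.07 to 1.21 with 1 replicate left out, turned to 0.989 in the stronger 1446 peaks (adjusted exact p = 1) and passed the threshold at 2.22 with the limit of 100 bp. Support in both replicates, 0.92 in the report, turned to 1.06 with summits matched within 50 bp. The thresholded share turned to 1.13 with a window of 1000 bp, to 1.2 in the stronger 1446 peaks and to 1.01 without replicate 2, and ranged from 0.973 to 1.01 with 1 replicate left out. The share of genes with a bound outermost start passed the threshold with windows of 250 bp (1.75) and 1000 bp (1.79), turned to 0.566 in the stronger 1446 peaks, where 6 of 133 genes with an internal-start peak were counted against 157 of 2038 others, and ranged from 1.18 without replicate 2 to 1.53 without replicate 3. The cause of these changes was not tested. Without peaks that had a stronger peak within 250 bp, the count was 239 and the odds ratios were 1.17, 0.925, 0.992 and 1.47, each on the same side of 1 and of the threshold as before. No paired analysis was possible because both libraries belonged to 1 group. With 2 libraries and no depth, the spread of a signal between libraries cannot be estimated beyond the 2 values given.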

Other observations

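CHES-1-like, a forkhead gene, held 9 thresholded peaks within 27048 bp, of which 1 was at an internal start, and shn, which encodes a zinc finger factor of the Dpp pathway, held 8 within 58309 bp, again with 1 at an internal start. In Svil 3 of 7 peaks were at internal starts, and in Rtnl1 4 of 5. These counts were not compared with gene length or with the number of starts.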
